A study of Mus musculus with 8 samples.

Results

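The 10 genes described here act in histone H3 lysine 9 methylation and heterochromatin. They are the methyltransferase genes Setdb1, Suv39h1, Suv39h2, Ehmt1 and Ehmt2, the HP1 genes Cbx1, Cbx3 and Cbx5, the remodeller gene Atrx and the imprint protector gene Zfp57. They were taken by name from the 24732 genes of a table of transcript levels, and all 10 were found there. The table covers 8 Smart-seq libraries of C57BL/6 mouse embryos, 2 for each of the groups CX45, CX22, 8C and 2C. Smart-seq amplifies full-length cDNA made from minute RNA inputs. The labels give the same strain and passage number for every library. The group names 8C and 2C are taken here to mean 8-cell and 2-cell embryos. Neither CX45 nor CX22 is spelled out in the labels, which name no treatment, dose, time or control group and do not say how many embryos a library holds. Per its title, the series deals with RNA polymerase I and the architecture of chromatin. Levels are FPKM, fragments per kilobase of a transcript and per mapped fragments of its library, which allows levels to be set beside each other between genes.

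Methylation of lysine 9 on histone H3 marks silent chromatin. SETDB1 adds it at retrotransposons and imprinted regions, to which KRAB zinc finger proteins such as ZFP57 lead it through TRIM28. SUV39H1 and SUV39H2 add it at pericentromeric repeats, and EHMT1 (GLP) with EHMT2 (G9a) adds the dimethyl form at silent genes in euchromatin. The HP1 proteins made from Cbx1 (HP1-beta), Cbx3 (HP1-gamma) and Cbx5 (HP1-alpha) bind the methylated tail through a chromodomain. ATRX, with DAXX, deposits a histone H3 variant at repeats and telomeres. Preimplantation embryos begin with maternal stores of such proteins and rebuild heterochromatin as their own genome is first transcribed.

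Judged by the spacing of low FPKM values, depth was 9.69 to 20.3 M fragments (M, mega) per library, at which 3 fragments on a transcript of 2 kb come to 0.0739 to 0.155 FPKM, a limit for counting error only. The 2C libraries differed from each other by about sampling noise, with a median chi-square 1.11 times that of chance, against 43.5 in CX45, 97.2 in CX22 and 26.2 in 8C. They were therefore counted as 1 sample, and no SD is given for 2C. Nothing in the labels says that replicates came from separate embryo pools, so the p-values rest on a spread between libraries that may be technical. CX22 stood out for unequal replicates: 331 genes passed 10 FPKM in 1 CX22 library while being listed at 0 in its replicate, a number that was 46 in CX45, 15 in 8C and 7 in 2C. Of 8 genes of oocytes and preimplantation embryos 6 or 7 were at 1 FPKM or more in both libraries of each group. The oocyte factor gene Gdf9 stood at 7.54 and 10.7 FPKM in CX45, 68.3 and 67.3 in CX22, 3.78 and 1.64 in 8C, and 100.1 and 103.5 in 2C. Dppa2, a gene of early embryos, went the other way, with 266 and 458 FPKM in CX45, 25.3 and 22.5 in CX22, 635 and 831 in 8C, and 14.7 and 16.1 in 2C. The oocyte gene Zp3 followed neither. It stood at 54.35 and 29.5 FPKM in CX45, 41.3 and 14.6 in CX22, 13.3 and 13.4 in 8C, and 14.7 and 15.5 in 2C. Pou5f1, the pluripotency factor gene, was listed at 0 in 1 library each of CX45, CX22 and 2C. Of 8 cumulus and granulosa markers 5 were at 0 in both libraries of CX45, 7 in CX22, 7 in 8C and 4 in 2C. That list summed to at most 1.33 FPKM in CX45, 2.1 in CX22 and 0.512 in 8C, and to 5.33 and 5.93 in 2C, mainly Star and Adamts1. The 6 sperm markers summed to 0 to 4.91 FPKM in CX45, 33.1 to 42.9 in CX22, 0 in 8C and 18.7 to 19.6 in 2C. In CX22 the sums came mainly from different genes, Tnp1 (42.2 FPKM) in replicate 1 and Prm2 (28.7) in replicate 2. No sperm marker reached 1 FPKM in both CX22 libraries. In 2C, Prm1 (2.5 and 1.56 FPKM) and Prm2 (17.1 and 16.7) did so in both. The 6 blood and immune markers summed to 301 to 367 FPKM in CX45, 33.7 to 90.5 in CX22, 13.3 to 31.9 in 8C and 109 in both 2C libraries. Hba-a1 was the highest of them in every library. The pan-leukocyte gene Ptprc stayed at or below 0.0701 FPKM, and Hbb-bt and Hbb-bs at or below 0.262. Lyz2 and Cd68 did not. Lyz2 stood at 9.61 and 7.45 FPKM in CX45, 10.15 and 11.8 in CX22, 0 in both 8C libraries, and 0 and 1.92 in 2C. Cd68 stood at 5.38 and 12.7 FPKM in CX45, 0 and 7.11 in CX22, 2.96 and 3.2 in 8C, and 3.17 and 3.16 in 2C. The part of these markers in any result was not tested.

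The promoters of 3 genes are shown because each gene fell in 8C against 2C and has a single start in the RefSeq promoter table: Suv39h2, Setdb1 and Atrx. All 10 genes matched that table (build GRCm38.p6, not the mm9 build of the FPKM values). Each sequence is the 250 bases before the transcription start on the gene's strand, and capitals mark matches on either strand to 3 motifs: CCAAT (NF-Y box), GGGCGG (GC box) and CCGGAAGT (ETS site). None of the 3 contains another.
Suv39h2, chr2:3474987-3475236, minus strand: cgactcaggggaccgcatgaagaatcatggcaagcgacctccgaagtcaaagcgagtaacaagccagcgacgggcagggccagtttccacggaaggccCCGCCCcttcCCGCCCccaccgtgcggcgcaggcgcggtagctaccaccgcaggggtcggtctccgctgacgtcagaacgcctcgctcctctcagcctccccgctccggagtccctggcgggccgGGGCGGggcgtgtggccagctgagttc
Setdb1, chr3:95357203-95357452, minus strand: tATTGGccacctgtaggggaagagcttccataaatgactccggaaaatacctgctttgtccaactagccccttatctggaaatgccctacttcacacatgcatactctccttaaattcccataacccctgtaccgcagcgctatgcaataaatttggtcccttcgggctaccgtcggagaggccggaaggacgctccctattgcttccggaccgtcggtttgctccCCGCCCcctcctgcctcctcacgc
Atrx, chrX:105929373-105929622, minus strand: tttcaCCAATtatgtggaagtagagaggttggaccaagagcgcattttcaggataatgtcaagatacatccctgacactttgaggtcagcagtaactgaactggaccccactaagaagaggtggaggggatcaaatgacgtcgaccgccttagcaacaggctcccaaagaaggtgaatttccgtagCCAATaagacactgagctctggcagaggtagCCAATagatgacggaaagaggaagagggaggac
The Suv39h2 window held GC boxes and 27 CpG dinucleotides, at or above the number in 92.4% of the 32851 promoter windows of the table. Setdb1 held a CCAAT box, a GC box and 13 CpG. Atrx held CCAAT boxes, no GC box and 6 CpG. CCAAT is found in 33.8% of all windows of this length, GGGCGG in 32.7% and CCGGAAGT in 2.88%. The ETS letters were in none of these 3 windows, and the 3 windows shared no motif among all of them. A match is a description of letters and not a binding site.

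Genes were tested together by limma on log2(FPKM + 1) over 11832 genes, all 10 members among them, and a call needed both a Benjamini-Hochberg adjusted p below 0.05 and a log2 fold change of 1 or more in size. Such fold changes understate those of low genes. The words rose and fell are kept for called genes. A value listed at 0 is not proof of absence: the ubiquitous gene Gapdh was at 0 in 4 libraries and reached 0.519 FPKM at most in the remaining ones. Where a group is listed at 0, a difference on this scale is no bound on the fold change, and such a group is named beside the p-value. A group at 0 in both libraries also adds nothing to the spread between replicates. The p-values of Setdb1, at 0 in both 8C libraries, may therefore be too low.

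Between 8C and 2C, Suv39h2, Setdb1 and Atrx fell and Ehmt2 rose. Suv39h2 stood near 1 FPKM in 8C against about 50 in 2C, Setdb1 was listed at 0 in 8C, and Ehmt2 was listed at 0 in 2C. In all, 4 of 10 members were called, against 37% of all genes tested, so the share was near the background. By direction 1 rose, against 16.4% of all genes, and 3 fell, against 20.7%. The median log2 fold change of the members was -0.35, against -0.03 for all genes. Without 8C replicate 1 limma called 0 members (1 without 8C replicate 2), with 1487 and 1411 calls over all genes against 4382.

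**Figure D1:**
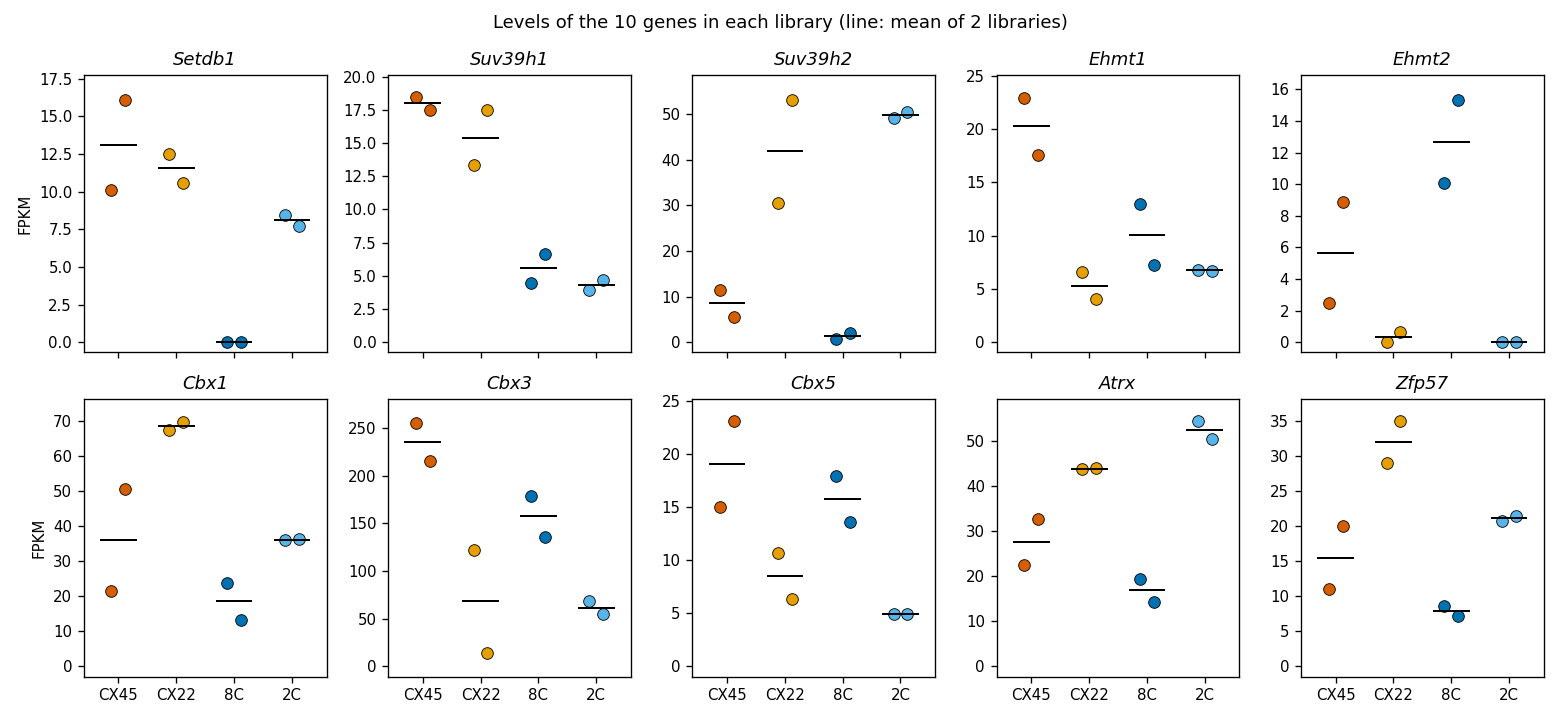
FPKM of each gene (vertical axis, from 0, own scale per gene) in the 2 libraries of CX45, CX22, 8C and 2C; points are libraries and lines are means. Suv39h2, Atrx and Zfp57 sit lowest in 8C, Setdb1 is at 0 in both 8C libraries and Ehmt2 in both 2C libraries.

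Setdb1 (chromosome 3, 95127447 to 95161124 in mm9, counted from 1), the methyltransferase of the TRIM28 pathway, stood at 10.1 and 16.1 FPKM in CX45, 12.5 and 10.6 in CX22, 0 in both 8C libraries, and 8.46 and 7.75 in 2C. The 8C libraries are thus apart from all 6 others, which lie within a 2.08-fold range. Setdb1 fell in 8C against 2C (limma adjusted p = 0.0105, and 0.0625 and 0.0645 without 8C replicate 1 and 2). It rose in CX45 against 8C (limma adjusted p = 0.0476). That call was lost in 9 of 16 alternatives, among them without any one of the CX45, CX22 or 8C libraries, with adjusted p from 0.00579 to 0.3 over all 16. The listed zeros are rare but not singular: of 2954 genes at 5 FPKM or more in all 6 other libraries, 9 (0.305%) were listed at 0 in both 8C libraries, Setdb1 among them. In the same direction, CX22 had 14 such genes of 2999, 2C had 9 of 2598, and CX45 had 0 of 2481. Outside CX45 replicate 1, the Setdb1 signal lay on a single transcript entry, NM_001163642. The Setdb1 locus shares 75 bases at its edge with Cers2, which stood at 96.3 and 157 FPKM in 8C and at no more than 25.3 in the other libraries; the part of Cers2 was not tested.

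Suv39h2 (chromosome 2, 3373087 to 3392258) encodes the methyltransferase paralog that, over all its transcript entries, was the more abundant one in CX22 and 2C. Its level was 11.6 and 5.48 FPKM in CX45, 30.6 and 53.2 in CX22, 0.69 and 2.11 in 8C, and 49.2 and 50.4 in 2C. From lowest to highest the order was 8C, CX45, CX22 and 2C, with no overlap between neighbours up to CX22, while the CX22 libraries lay on both sides of those of 2C. The log2 fold change in 8C against 2C was -4.47 (SE 0.69, limma adjusted p = 0.0105), and the call was lost without 8C replicate 1 (adjusted p = 0.0597). It also fell in CX45 against CX22 (log2 fold change -2.20, SE 0.56, limma adjusted p = 0.0375). That second call was lost in 8 of 16 alternatives, including the omission of any CX45, CX22 or 8C library, and turned in 1, that of mRNA entries alone. Over the 15 that kept the direction, adjusted p ran from 0.0112 to 0.152. In CX45 against 2C the log2 fold change was -2.49 (SE 0.69, limma adjusted p = 0.053), which missed the threshold and passed with the 2C libraries kept separate (0.0064), with quantile normalization (0.038) and on mRNA entries (0.0236).

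Most of the Suv39h2 signal lay on a non-coding RefSeq entry of the gene, NR_027509. That entry carried 73.4% and 65.1% of the gene's FPKM in CX45, 100% in both CX22 and both 8C libraries, and 79.7% and 77.4% in 2C. On the mRNA entry alone, Suv39h2 stood at 3.07 and 1.91 FPKM in CX45, 0 in both CX22 and both 8C libraries, and 9.998 and 11.4 in 2C. With mRNA entries alone the direction of CX45 against CX22 turned and Suv39h2 was called higher in CX45, with CX22 then listed at 0 (limma adjusted p = 0.0109). With those entries Suv39h2 was also called lower in CX22 against 2C (limma adjusted p = 0.0157). The split of fragments between entries of 1 gene is an estimate by the authors' quantifier, and the gene's locus also overlaps Dclre1c by 10633 bases, a gene listed at 0 in 7 of 8 libraries.

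Suv39h1 (chromosome X, 7638297 to 7651886), the partner paralog, stood at 18.5 and 17.5 FPKM in CX45, 13.3 and 17.5 in CX22, 4.48 and 6.64 in 8C, and 3.95 and 4.67 in 2C. Both CX groups lay above both stage groups in every library, while CX45 and CX22, and 8C and 2C, stood close to each other. Suv39h1 rose in CX45 against 2C (log2 fold change 1.84, SE 0.41, limma adjusted p = 0.0329). That call was lost in 5 of 16 alternatives and its direction turned in 1, the losses including the omission of either CX45 library (adjusted p = 0.1 and 0.0902) or either 8C library. In CX45 against 8C the log2 fold change was 1.55 (SE 0.34, limma adjusted p = 0.108), and in CX22 against 2C it was 1.62 (SE 0.41, adjusted p = 0.142). Neither was called, and with the 2C libraries kept separate both passed (limma adjusted p = 0.0319 and 0.0188). With a replicate block added to that fit, CX45 against 8C no longer passed (limma adjusted p = 0.0512). The FPKM of Suv39h1 lay on different entries in the 2 CX45 libraries, all of it on NM_001290716 in replicate 1 and on NM_011514 in replicate 2. The sum over entries is steadier than either: with the highest entry alone the log2 fold change of CX45 against 2C was -0.27.

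The balance of the 2 Suv39h genes differed between groups. Suv39h1 made up 61.5% and 76.2% of their summed FPKM in CX45, 30.3% and 24.7% in CX22, 86.7% and 75.9% in 8C, and 7.43% and 8.48% in 2C. Suv39h1 was thus the larger share in both CX45 and both 8C libraries and the smaller in CX22 and 2C. On mRNA entries alone this turned in CX22, where Suv39h2 is then listed at 0 and Suv39h1 holds the whole sum, while in 2C Suv39h1 remained below the 9.998 and 11.4 FPKM of the Suv39h2 mRNA. No test was made of these shares.

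**Figure D2:**
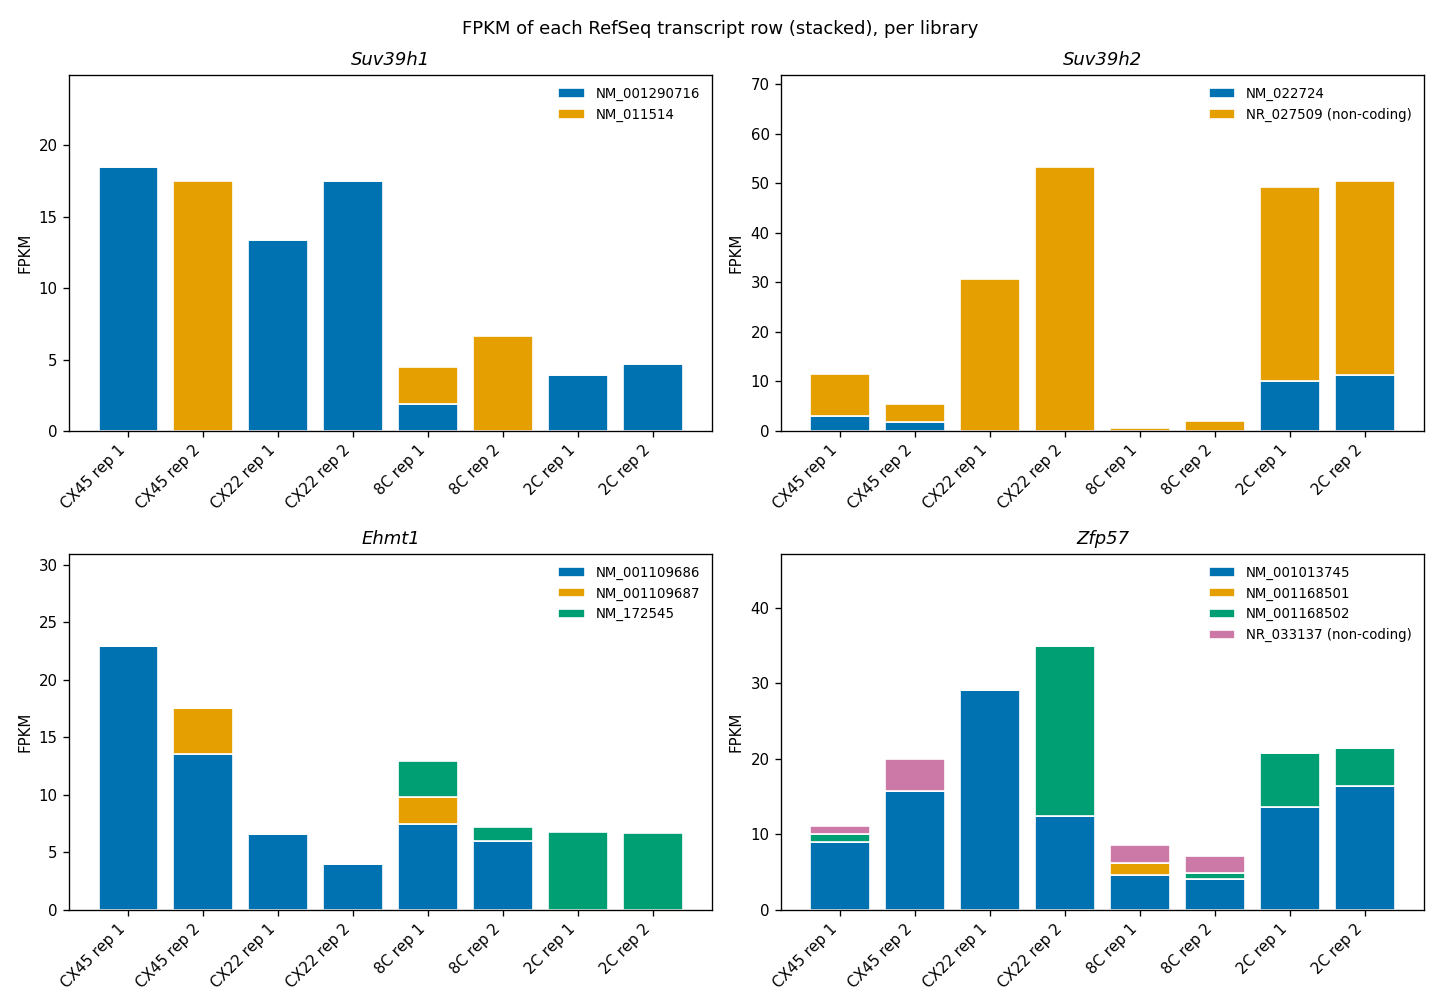
Stacked FPKM of each RefSeq transcript entry (vertical axis) of Suv39h1, Suv39h2, Ehmt1 and Zfp57 in each library. Suv39h1 lies on NM_001290716 in CX45 replicate 1 and on NM_011514 in CX45 replicate 2, and most Suv39h2 signal lies on the non-coding entry NR_027509.

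Ehmt2 (chromosome 17, 35035437 to 35050995), which encodes G9a, stood at 2.46 and 8.85 FPKM in CX45, 0.0272 and 0.66 in CX22, 10.04 and 15.3 in 8C, and 0 in both 2C libraries. The order from lowest was 2C, CX22, CX45 and 8C, with no overlap between neighbours. Ehmt2 rose in 8C against 2C (limma adjusted p = 0.0254, and 0.0921 and 0.117 without 8C replicate 1 and 2). In CX45 against CX22 the log2 fold change was 2.16 (SE 0.67, limma adjusted p = 0.0617), which missed the threshold and passed with the 2C libraries kept separate (0.0216). In CX45 against 2C, listed at 0, Ehmt2 was not called (limma adjusted p = 0.0761) except with the 2C libraries kept separate (0.0109). In CX45 against 8C the log2 fold change was -1.20 (SE 0.67, limma adjusted p = 0.422). All of the signal lay on 1 of 4 entries, NM_147151.

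Ehmt1 (chromosome 2, 24646289 to 24775129), which encodes GLP, was measured at 22.9 and 17.5 FPKM in CX45, 6.59 and 4.02 in CX22, 12.9 and 7.22 in 8C, and 6.74 and 6.72 in 2C. The CX45 libraries were above all others, and the 2C libraries lay just above the CX22 ones. Ehmt1 rose in CX45 against CX22 (log2 fold change 1.77, SE 0.44, limma adjusted p = 0.0343). The call was lost in 6 of 16 alternatives, among them the omission of either CX45 library (adjusted p = 0.144 and 0.1), CX22 replicate 2 (0.0902) or either 8C library (0.0681 and 0.0657). In CX45 against 8C the log2 fold change was 0.98 (SE 0.44, limma adjusted p = 0.323), and in CX45 against 2C it was 1.45 (SE 0.53, adjusted p = 0.104, and 0.02 with the 2C libraries kept separate). The 2C signal lay wholly on NM_172545, an entry listed at 0 in all CX45 and CX22 libraries. With the highest entry of each gene alone, Ehmt1 was called higher in 8C against 2C, with 2C then listed at 0 (limma adjusted p = 0.0204).

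GLP and G9a act as a pair, and their transcripts were unequal in most libraries. Ehmt2 made up 9.7% and 33.5% of their summed FPKM in CX45, 0.411% and 14.1% in CX22, 43.7% and 68.0% in 8C, and 0% in 2C. The sum itself was 25.4 and 26.4 FPKM in CX45, 6.62 and 4.68 in CX22, 23.0 and 22.6 in 8C, and 6.74 and 6.72 in 2C. CX45 and 8C thus had like sums, and the Ehmt2 share was smaller in both CX45 libraries than in either 8C library. The shares differed widely between replicates, and no test was made of them. Neither gene was called in CX45 against 8C.

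**Figure D3:**
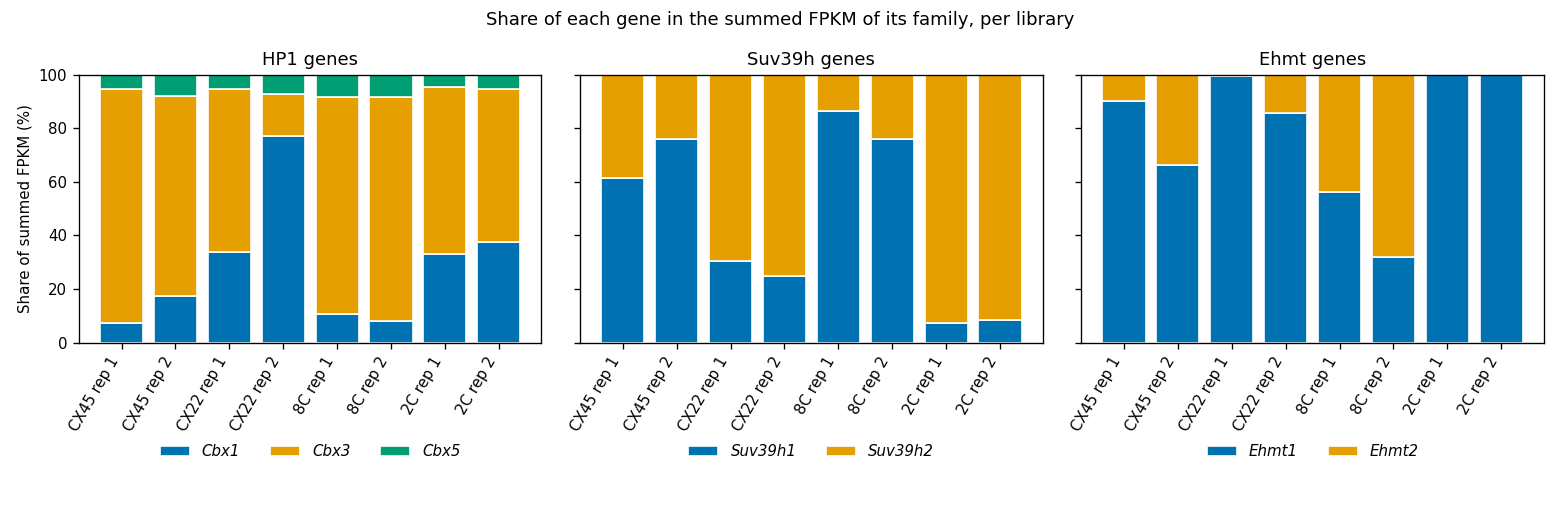
Share of each gene in the summed FPKM of its family (vertical axis, %) in each library, for the HP1, Suv39h and Ehmt genes. Cbx3 is the largest HP1 share except in CX22 replicate 2, Suv39h1 is, over all entries, the larger share in CX45 and 8C, and Ehmt2 is at 0% in 2C.

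Of the HP1 readers, Cbx3 (chromosome 6, 51420615 to 51433703) was the most abundant member in 7 of 8 libraries. It stood at 255 and 216 FPKM in CX45, 122 and 14.5 in CX22, 179 and 136 in 8C, and 68.2 and 55.2 in 2C. The CX22 libraries differed 8.4-fold from each other, on both sides of 2C, so no level can be given for that group. CX45 lay above 8C and 8C above 2C in every library, and limma called no difference (log2 fold change 1.32 in 8C against 2C, SE 1.22, adjusted p = 0.432). Without either CX22 library Cbx3 was called higher in 8C against 2C and in CX45 against 2C. The log2 fold changes stayed at 1.32 and 1.91, since neither comparison holds a CX22 library. The omission only took the spread of CX22 out of the error estimate that all groups share. In CX45 against CX22 the log2 fold change of Cbx3 was 3.93 without CX22 replicate 1 and 0.94 without replicate 2. It thus depended on which CX22 library was kept.

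Cbx5 (chromosome 15, 103021977 to 103070283) stood at 15.1 and 23.1 FPKM in CX45, 10.7 and 6.39 in CX22, 17.9 and 13.7 in 8C, and 4.89 and 4.95 in 2C. It was lowest in 2C in every library, and CX45 and 8C overlapped. In 8C against 2C the log2 fold change was 1.49 (SE 0.50, limma adjusted p = 0.0739), and in CX45 against 2C it was 1.73 (SE 0.50, adjusted p = 0.0585). Neither was called, and both were called with the 2C libraries kept separate (adjusted p = 0.0128 and 0.00823). Quantile normalization called the first as well (limma adjusted p = 0.0444). The omission of either CX22 library called the second, a comparison that holds no CX22 library, with its log2 fold change still 1.73.

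Cbx1 (chromosome 11, 96650449 to 96669957) stood at 21.4 and 50.5 FPKM in CX45, 67.3 and 69.8 in CX22, 23.8 and 13.3 in 8C, and 36.0 and 36.2 in 2C. CX22 was above all other groups in every library, 8C lay below 2C, and the CX45 libraries were 2.35-fold apart. No comparison was called for Cbx1, and its smallest limma adjusted p was 0.181, in CX45 against CX22. The Cbx1 locus overlaps Gm11517 by 2825 bases, a gene at 1926 and 2436 FPKM in CX45, 85.0 and 13.3 in CX22, 4797 and 5656 in 8C, and 102 and 102 in 2C. Its part in the Cbx1 values was not tested. HP1 genes also have processed pseudogenes, so fragments may be shared with copies elsewhere.

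Within the HP1 family, Cbx3 made up 87.5% and 74.6% of the summed FPKM in CX45, 60.9% and 16.0% in CX22, 81.1% and 83.4% in 8C, and 62.5% and 57.3% in 2C. The share of Cbx5 stayed between 4.48% and 8.4% in all 8 libraries. The share of Cbx1 ran from 7.35% in CX45 replicate 1 to 77.0% in CX22 replicate 2, and it was above that of Cbx5 in every library except 8C replicate 2.

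Atrx (chromosome X, 102992956 to 103124711) stood at 22.4 and 32.7 FPKM in CX45, 43.7 and 43.9 in CX22, 19.4 and 14.3 in 8C, and 54.5 and 50.5 in 2C. The 4 groups did not overlap and ran 8C, CX45, CX22 and 2C from lowest to highest. By group mean Suv39h2 had the same order over all its entries, with CX22 and 2C overlapping. That order did not hold on the Suv39h2 mRNA entry, where both CX22 libraries were listed at 0. Atrx fell in 8C against 2C (log2 fold change -1.60, SE 0.37, limma adjusted p = 0.029, and 0.0802 and 0.122 without 8C replicate 1 and 2). In CX45 against 2C the log2 fold change was -0.93 (SE 0.37, limma adjusted p = 0.12), and in CX45 against 8C it was 0.67 (SE 0.30, adjusted p = 0.323). In CX45 against CX22 it was -0.67 (SE 0.30, limma adjusted p = 0.147), called under quantile normalization alone (0.0499).

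Zfp57 (chromosome 17, 37138108 to 37147674) stood at 11.1 and 19.96 FPKM in CX45, 29.1 and 35.0 in CX22, 8.57 and 7.14 in 8C, and 20.8 and 21.5 in 2C. It was highest in CX22 and lowest in 8C in every library. None of its differences was called with the 2C libraries as 1 sample and all entries summed on the deposited scale. The log2 fold change was -1.33 in 8C against 2C (SE 0.45, limma adjusted p = 0.0779) and -1.05 in CX45 against CX22 (SE 0.37, adjusted p = 0.0861). On mRNA entries alone both were called (limma adjusted p = 0.0306 and 0.0418), where a non-coding entry of Zfp57, left out there, was above 0 in CX45 and 8C and at 0 in CX22 and 2C. Both were also called with the 2C libraries kept separate (limma adjusted p = 0.0138 and 0.0388), and the second with quantile normalization (0.0386).

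**Figure D4:**
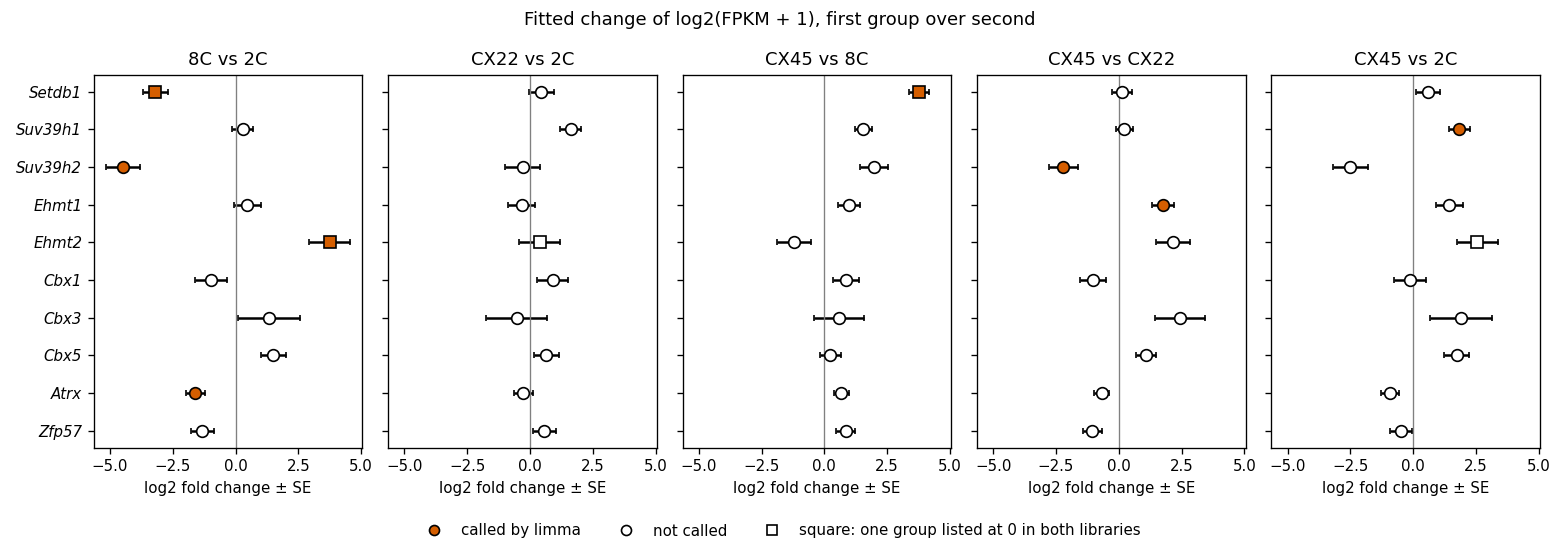
Log2 fold change of log2(FPKM + 1) with its SE (horizontal axis) for each gene in the 5 comparisons, first-named group over second; filled points were called by limma and squares rest on a group listed at 0. Filled points number 4 in 8C against 2C, 0 in CX22 against 2C, 1 in CX45 against 8C, 2 in CX45 against CX22 and 1 in CX45 against 2C.

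In CX22 against 2C limma called 0 of 10 members, against 3.85% of all genes. At an unadjusted p under 0.05 there was 1, Suv39h1, higher in both CX22 libraries, where 16.1% of all genes had such a p. The members' median log2 fold change was 0.42, against -0.07 for all genes. With the 2C libraries kept separate Suv39h1 was called, and 1606 genes over the table against 456.

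In CX45 against 8C limma called 1 of 10 members (Setdb1, higher), against 0.659% of all genes (0.456% higher). At an unadjusted p under 0.05 there were 3, all higher (Setdb1, Suv39h1 and Suv39h2), where 19.3% of all genes had such a p. The median log2 fold change was 0.85 over the members and 0.31 over all genes, and quantile normalization took the median of all genes to 0 with 0 members called. Suv39h2 had a log2 fold change of 1.97 (SE 0.56, limma adjusted p = 0.167). Ehmt2 was the only member with a negative value, -1.20.

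In CX45 against CX22 limma called 2 of 10 members, against 36.6% of all genes: Ehmt1 rose (23.1% of all genes did) and Suv39h2 fell (13.5%). The median log2 fold change was 0.18 over the members and 0.47 over all genes. Over all genes 2735 were called higher and 1597 lower, against 2015 and 2084 with quantile normalization, which took the median of all genes to 0.06. Quantile normalization called 4 members, 1 higher and 3 lower. In CX45 against 2C limma called 1 of 10 members (Suv39h1, higher), against 29.8% of all genes (16.3% higher). The median was 1.02 over the members and 0.33 over all genes. With FPKM rescaled to a fixed sum per library, Suv39h1 missed the threshold there (adjusted p = 0.0678).

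Whether the difference of CX45 and CX22 departed from that of 8C and 2C was tested as an interaction. Limma called 0 of 10 members, against 3.54% of all genes, and 1 member had an unadjusted p under 0.05, where 20.3% of all genes did. That was Setdb1 (limma adjusted p = 0.0723), whose CX45, CX22 and 2C values lay between 7.75 and 16.1 FPKM and whose 8C values were 0. Setdb1 passed with the 2C libraries kept separate (limma adjusted p = 0.0103). Suv39h2 had an interaction of 2.27 on the log2 scale (SE 0.88, limma adjusted p = 0.254), which was not called. On mRNA entries alone, with CX22 and 8C then listed at 0, it was called (limma adjusted p = 0.0246).

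Other genes of the pathway were read from the same fit in 5 lists, of which 47 genes were tested of 57 in the table. In 8C against 2C 7 rose and 8 fell, 31.9% of those tested, against 37% of all genes. In CX45 against CX22 16 rose and 4 fell (42.6%, against 36.6%), and in CX45 against 2C 12 rose and 4 fell (34%, against 29.8%). Limma called 0 of the 47 in CX22 against 2C, in CX45 against 8C and in the interaction; at an unadjusted p under 0.05 there were 5, 15 and 11 of the 47, against 16.1%, 19.3% and 20.3% of all genes in the same order. The lists were chosen with earlier results of these data known.

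Genes listed with SETDB1, TRIM28 and the HUSH complex, not all of them partners, numbered 13 tested. In 8C against 2C they gave 5 risen (Morc2a, Pphln1, Smarcad1, Trim28 and Zfp568) and 2 fallen (Mphosph8 and Setdb2). The median log2 fold change of the 13 was 1.23. Over all genes tested 16.4% rose and 20.7% fell, with a median of -0.03. Smarcad1, which encodes a remodeller that binds TRIM28, averaged 192 ± 57.6 FPKM in CX45, 19.2 ± 3.26 in CX22 and 243 ± 14.3 in 8C (SD, n = 2 each), and 4.84 in 2C. It rose in 8C against 2C (log2 fold change 5.38, limma adjusted p = 0.00207) and in CX45 against CX22 (3.23, adjusted p = 0.00467). Pphln1, which encodes the HUSH subunit periphilin, rose in both as well (2.39 and 2.15 on the log2 scale). Mphosph8, the chromodomain subunit of HUSH, fell to 7.72 ± 0.921 FPKM in 8C (SD, n = 2), against 33.4 in 2C (log2 fold change -1.98, limma adjusted p = 0.0151). Zfp568, a KRAB zinc finger gene, rose in 8C against 2C (2.13 on the log2 scale) and was lower in CX45 than in 8C without being called (-1.55, limma adjusted p = 0.078). Trim28 itself also rose in CX45 against CX22.

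Partners of G9a and GLP and other methyltransferases or readers, 8 tested, gave 0 risen and 3 fallen in 8C against 2C (Mecom, Uhrf1 and Zfp518a). Over all genes tested 16.4% rose and 20.7% fell. Zfp518a, a zinc finger gene, averaged 23.2 ± 0.951 FPKM in CX45, 79.4 ± 3.71 in CX22 and 6.73 ± 0.387 in 8C (SD, n = 2 each), and 68.2 in 2C. It fell in 8C against 2C (log2 fold change -3.16, limma adjusted p = 0.00282) and in CX45 against CX22 (-1.73, adjusted p = 0.00711). In CX45 against 8C it was higher without being called (1.65, limma adjusted p = 0.0582). Uhrf1, whose protein reads methylated lysine 9 and hemimethylated DNA, also fell in both of these comparisons (log2 fold changes -2.69 and -2.31). Prdm2 was not called in any of the 5 comparisons.

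HP1 partners and downstream factors, 12 tested, gave 1 risen (Lbr) and 1 fallen (Sgo1) in 8C against 2C. Over all genes tested 16.4% rose and 20.7% fell. Lbr, the inner nuclear membrane receptor that binds HP1, averaged 112 ± 39.1 FPKM in CX45, 40.8 ± 12.95 in CX22 and 158 ± 2.61 in 8C (SD, n = 2 each), and 22.6 in 2C (log2 fold change 2.75 in 8C against 2C, limma adjusted p = 0.0118). Sgo1, the shugoshin that guards centromeric cohesin, fell to 11.5 ± 1.09 FPKM in 8C (SD, n = 2), against 55.4 in 2C. Kmt5c, a histone H4 lysine 20 methyltransferase gene, was listed at 0 in both 8C libraries and averaged 1.41 ± 0.462 FPKM in CX45 (SD, n = 2). It was also near 0 in CX22 (0 and 0.0379 FPKM) and in 2C (0 and 0.0358). Kmt5c rose in CX45 against CX22 (limma adjusted p = 0.00928) and in CX45 against 2C (0.0186). It reached 1 FPKM in CX45 alone, so it passed the filter only through the group where it is high. Groups near 0 add almost nothing to the spread, so these p-values may be too low. Of 5 tested ATRX partners 1 rose in 8C against 2C, the histone H3 variant gene H3f3a (924 ± 146 FPKM in 8C, SD, n = 2, and 152 in 2C), while H3f3b and Macroh2a1 were not called.

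Genes listed as demethylases of lysine 9, 9 tested, gave 0 risen and 2 fallen (Kdm7a and Phf8) in 8C against 2C. Over all genes tested 16.4% rose and 20.7% fell. The list includes Riox1, which is not an established demethylase of lysine 9. Kdm7a averaged 9.87 ± 1.87 FPKM in CX45, 56.9 ± 7.56 in CX22 and 6.05 ± 0.229 in 8C (SD, n = 2 each), and 55.5 in 2C (log2 fold change -3.002 in 8C against 2C, limma adjusted p = 0.00486). Phf8 fell to 0.357 ± 0.143 FPKM in 8C (SD, n = 2), against 13.3 in 2C. In CX45 against CX22 5 of the listed genes rose (Kdm1a, Kdm3a, Kdm3b, Kdm4c and Riox1) and 1 fell (Kdm7a). Of all genes tested 23.1% rose and 13.5% fell in that comparison. Kdm3a rose there by 1.27 on the log2 scale (limma adjusted p = 0.0229), with 43.5 ± 8.12 FPKM in CX45 and 17.3 ± 2.69 in CX22 (SD, n = 2 each).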

How the data were processed

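Per the labels' protocols, embryo cDNA was amplified by KAPA HiFi, turned into Nextera XT libraries and read on the BGISEQ500 platform. Per the submitters' processing notes, the authors used HISAT2 (listed with version 4.8.2) and Cufflinks 2.2.1 on build mm9, with settings not given in the sources used here. In all, the table the authors deposited holds FPKM for 41876 RefSeq entries, and RefSeq (GRCm38.p6) gave a symbol for 41685 of them. Entries were summed per gene. Accessions at several loci (337, none of a member) were summed too. Reads were not reprocessed, and fragment assignment between entries, pseudogenes and overlapping genes is the authors'.

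The filter kept genes that reached 1 FPKM in 2 or more libraries. Values were log2(FPKM + 1). All 4 groups were fitted with limma 3.58.1 in R 4.3.3 with a trend, two-sided, 7 samples and 3 residual degrees of freedom. The 2C libraries were averaged after the noise check, over 1850 genes of 20 to 200 implied fragments, its spread taken to equal that of the remaining groups. Depth was the number of fragments at which low FPKM times length became whole (64.8% to 70.5% of values within 0.05). Simulated data over 11832 genes served to test this fit in 8C against 2C. Of 100 genes given a log2 change of 4, 100% were recovered, and 79% of 100 given 2. The spread was that of the fitted trend, capped at its median, and both simulated 2C libraries had the same values. Changed genes were drawn only from those whose log2 of mean FPKM + 1 was above 3. Recovery among lower or more variable genes was thus not measured, and this spread need not hold in the data.

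The members and lists were chosen with earlier results of these data known. Named genes are the 10 members and, per list, the 2 genes with the smallest p in 8C against 2C and in CX45 against 8C. Other genes, those beside counts of 5 or fewer among them, and the promoters shown were chosen after their values were seen. Alternatives were another pseudocount (0.1), no filter, quantile normalization, FPKM rescaled to 1 fixed sum per library (TPM scale), 8 separate libraries, a replicate block, the highest entry per gene, the omission of each library and, added after seeing the data, mRNA entries alone. Protein sequences were not used here.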

Additional observations from a re-analysis of the deposited data

How the results depend on the processing

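Over the 8 called member results and 16 alternatives each, 91 of 128 kept their call and direction, 35 lost the call and 2 turned direction. Of 832 uncalled ones, 763 stayed uncalled in the same direction, 42 were called and 27 turned direction. The calls of 8C against 2C were lost on omission of an 8C library, except that of Suv39h2 without 8C replicate 2. With 2 libraries a group, 3 residual degrees of freedom and listed zeros, a missed call does not show that levels were alike.

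Leaving out 1 library at a time gave 1411 to 5606 called genes in 8C against 2C (members 0 to 5), 199 to 1103 in CX22 against 2C (members 0 to 0), 0 to 78 in CX45 against 8C (members 0 to 1), 2442 to 4609 in CX45 against CX22 (members 0 to 2), 1491 to 4919 in CX45 against 2C (members 0 to 3) and 0 to 1095 in the interaction (members 0 to 0). With the main settings these were 4382 (4), 456 (0), 78 (1), 4332 (2), 3530 (1) and 419 (0).

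With 8 separate libraries limma called 6679 genes in 8C against 2C (6 members), 1606 in CX22 against 2C (1 member), 1037 in CX45 against 8C (2 members), 6085 in CX45 against 2C (5 members) and 1770 in the interaction (1 member), and 5395 in CX45 against CX22 (5 members). The replicate block on those 8 libraries gave, in that order, 6614 (6 members), 1335 (1), 707 (1), 6019 (5), 1327 (1) and 5323 (4). Against the 8 separate libraries the block lost Suv39h1 in CX45 against 8C (limma adjusted p = 0.0512) and Cbx5 and Zfp57 in CX45 against CX22 (0.0729 and 0.0511), and gained Cbx3 there (0.0414). The replicate numbers were not shown to pair libraries: deviations of same-numbered libraries correlated at -0.000728 to 0.108 between groups, across genes.

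Quantile normalization called 241 genes in CX22 against 2C and 0 in CX45 against 8C and in the interaction. Members called were 0 in CX45 against 8C, 4 in CX45 against CX22 and 2 in CX45 against 2C. The pseudocount of 0.1 called 183 genes in CX45 against 8C, and 1 member in CX45 against CX22 and in the interaction. No filter called 0 genes and 0 members in CX45 against 8C, and 1 member in CX45 against CX22. The TPM scale called 0 members in CX45 against 2C. The highest transcript entry called 0 members in CX45 against 8C, 1 in CX45 against CX22 and 2 in CX45 against 2C. mRNA entries alone called 1 member in CX22 against 2C, 2 in CX45 against 2C and 1 in the interaction.

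Directions that turned were, on the log2 scale and for CX45 against CX22, Setdb1 (-0.061 with quantile normalization, -0.138 on the TPM scale, -0.026 with the highest entry, and -0.172 to 0.452 when leaving out 1 library at a time), Suv39h1 (-0.043, -0.059 and -1.884 in the first 3 of these) and Suv39h2 (1.78 with mRNA entries, CX22 then listed at 0). For 8C against 2C Suv39h1 turned (-0.074 on the TPM scale, -1.636 with the highest entry), and for CX45 against 2C Suv39h1 (-0.27 with the highest entry) and Cbx1 (-0.725 to 0.472 over single omissions). For CX22 against 2C they were Suv39h2 (0.047 with the highest entry, -0.683 to 0.095 over single omissions), Ehmt1 (2.63 with the highest entry, 2C then listed at 0) and Cbx3 (-2.019 to 0.968 over single omissions). For CX45 against 8C Cbx5 turned (-0.132 with quantile normalization, -0.054 to 0.534 over single omissions). In the interaction they were Suv39h1 (0.014 on the TPM scale, -0.304 to 0.175 over single omissions), Ehmt1 (-1.351 with the highest entry, 2C at 0), Cbx1 (0.068 on the TPM scale, -0.652 to 0.545 over single omissions), Cbx3 (-0.381 to 2.606 over single omissions) and Zfp57 (-0.244 with quantile normalization, -0.118 to 0.676 over single omissions). The cause was not tested.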
